A study of Mus musculus with 7 samples.

Results

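Transcripts of 10 secreted or shed signals that attract or sustain myeloid cells were measured in mouse dorsal root ganglia after a sciatic nerve injury. The genes were chosen by name, with earlier results of these data known, and all 10 were found among the 54309 genes of the expression table. They were Csf1, Il34, Ccl2, Ccl7, Cx3cl1, Cxcl10, Cxcl12, Il1b, Tnf and Reg3b. The samples came from male C57bl/6 mice of 6 to 8 weeks, per the labels. The sciatic nerve was injured at Zeitgeber time 20 (ZT20, 4 samples) or Zeitgeber time 8 (ZT8, 3 samples). Zeitgeber time counts hours from lights on. The L4-6 ganglia, which hold the cell bodies of sciatic sensory neurons, were taken 72 h later, so injury and dissection fell at the same clock time and their effects cannot be told apart. All 7 samples were injured, no uninjured ganglion and no transgene entered the comparison, and a rise after injury itself was not measured here. Ganglia were dissociated with enzymes and spun through a gradient of albumin to enrich for neurons, so each sample is a neuron-enriched but mixed cell suspension. The labels do not say whether a sample came from 1 animal or several, and the p-values measure the spread between these samples.

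Injured sensory neurons and the glia and macrophages around them exchange secreted signals. Csf1 and Il34 both act on the receptor Csf1r, on which macrophages and microglia depend, and Csf1 is known as a signal that injured sensory neurons make. Chemokines such as Ccl2 and Ccl7 draw monocytes through the receptor Ccr2, and Cx3cl1 acts on Cx3cr1 of monocytes and macrophages. Il1b and Tnf are inflammatory cytokines made largely by myeloid cells. Reg3b is a secreted lectin-like protein that sensory neurons are known to produce after nerve injury.

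Many of these genes are known targets of the transcription factor NF-kappaB, so the 250 bases before the start of each member were searched for its 10-base motif on both strands. RefSeq promoter sequences (build GRCm38.p6) were at hand for 7 members, all but Ccl2, Ccl7 and Il34. A match was found in 2 of the 7, Csf1 and Cxcl10, against 3.90% of 32851 promoter windows of the same length. These 2 windows are shown because Csf1 was the most abundant member and Cxcl10 the one with the widest spread among members detected in every sample above 1 TPM. They are also the only windows with a match, and the windows without one are not shown. Capitals mark the NF-kappaB motif matches, and both genes lie on the minus strand.
Csf1, chr3:107760470-107760719, minus strand: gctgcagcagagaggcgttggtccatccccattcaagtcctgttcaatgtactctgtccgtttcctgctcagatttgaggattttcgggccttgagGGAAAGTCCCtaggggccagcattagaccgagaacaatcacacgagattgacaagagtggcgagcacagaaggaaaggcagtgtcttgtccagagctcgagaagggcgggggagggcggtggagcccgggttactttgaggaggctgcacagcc
Cxcl10, chr5:92348890-92349139, minus strand: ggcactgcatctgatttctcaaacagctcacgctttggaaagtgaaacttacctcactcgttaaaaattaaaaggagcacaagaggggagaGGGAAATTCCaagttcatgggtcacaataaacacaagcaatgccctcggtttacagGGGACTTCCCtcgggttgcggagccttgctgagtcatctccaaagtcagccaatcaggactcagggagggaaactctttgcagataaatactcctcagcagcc
The Csf1 window held 1 match, from 154 to 145 bases before the start, on the strand opposite to the gene. The Cxcl10 window held 2 matches on the strand of the gene, from 159 to 150 and from 103 to 94 bases before the start. The clock motifs CACGTG (E-box) and TTATGTAA (D-box) were absent from these 7 windows and present in 6.02% and 0.819% of all windows. A match describes letters only, and no binding was measured.

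Libraries of a group are listed below in replicate order. The values are TPM, a transcript abundance corrected for transcript length, with an equal total in every library. Levels can therefore be set side by side between genes only roughly, as a trend with transcript length remained in the values. Removing it in each sample took the count of genes higher at ZT20 in the limma test below from 1899 to 494. The sequencing depth behind each value is unknown. The number of genes above 0 TPM was 24192 to 25238 at ZT20 and 22541, 18297 and 22973 in ZT8 replicates 1 to 3, so ZT8 replicate 2 stood apart. It also had the score farthest from 0 on the first principal component (86.1, against −42.4 to 25.8 in the other samples). All 7 samples are labelled male, but the summed TPM of 4 Y-linked genes was under 0.1 in ZT20 replicates 3 and 4, which go against that label. It was 33.1 in ZT20 replicate 2 and 61.1 to 84.6 in the other 4. The sample identifiers are numbers at ZT20 and letters at ZT8, and any batch behind them cannot be told apart from the group.

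None of the 9 members tested passed an adjusted p-value of 0.05 between the injury times by limma with Benjamini-Hochberg adjustment over all 14800 tested genes, and 1, Ccl7, had an unadjusted p under 0.05. In the same test 16.4% of all tested genes passed, 12.8% higher and 3.61% lower at ZT20. An unadjusted p under 0.05 was found for 5122 of the 14800. Genes were tested when their mean reached 1 TPM over the 7 samples, which Tnf did not. The signs were 5 positive and 4 negative, and the median log2 difference of the 9 was 0.018, against 0.23 for all tested genes. Median-ratio scaling and quantile normalization moved the median of all genes to 0.019 and 0.0046, and the signs of the members to 2 positive and 7 negative in each. The signs of small differences therefore depend on the scaling. For 1 member, Ccl7, the range of ZT20 values lay clear of the ZT8 range, as it did for 33.2% of all tested genes.

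**Figure D1:**
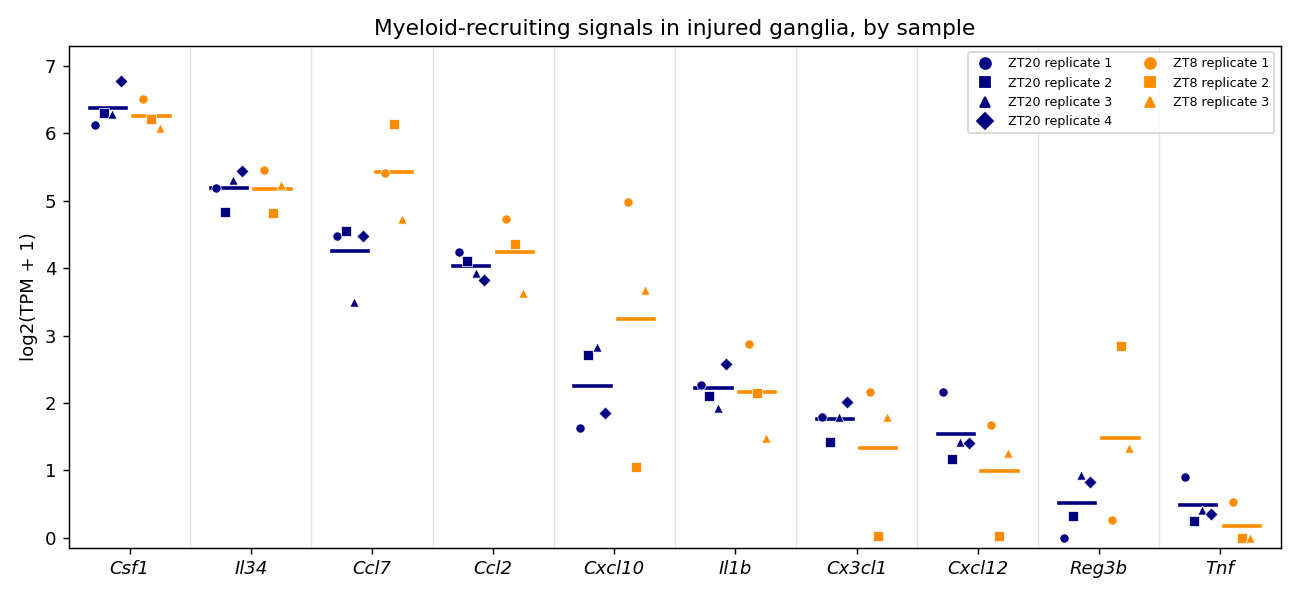
Level of each member as log2(TPM + 1) in each sample, ordered by mean TPM, with ZT20 in blue and ZT8 in orange. Symbols give the replicate and horizontal bars the group mean. Ccl7 is the member whose groups do not overlap, and ZT8 replicate 2 is near 0 for Cx3cl1 and Cxcl12.

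On the log2 scale, the Csf1r ligands had the smallest residual SD of the tested members (0.26 for Csf1 and 0.29 for Il34). Csf1 (ENSMUSG00000014599), the macrophage colony-stimulating factor, was at 69.0, 78.4, 76.9 and 108 TPM across the ZT20 libraries. The ZT8 libraries measured 89.9, 73.0 and 66.6 TPM. The groups overlapped throughout, and the highest sample was ZT20 replicate 4. The means were 83.2 ± 17.3 TPM (SD, n = 4) and 76.5 ± 12.1 TPM (SD, n = 3). The log2 difference, ZT20 minus ZT8, was 0.11 with a 95% interval of −0.30 to 0.52 (limma adjusted p = 0.694). A change beyond these bounds, in either direction, lies outside the interval. With a mean of 80.3 TPM over all samples, Csf1 was above 84.0% of the tested genes.

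Il34 (ENSMUSG00000031750), the other Csf1r ligand, measured 35.5, 27.4, 38.5 and 42.4 TPM across the ZT20 libraries. It measured 43.2, 27.2 and 36.6 TPM across the ZT8 libraries. Replicate 2 was the lowest of each group, and both ranges were nearly the same. The log2 difference was 0.018 with a 95% interval of −0.45 to 0.48 (limma adjusted p = 0.956). Il34 overlaps genes on the opposite strand in GENCODE M21, and the assignment of reads there is uncertain. Within a sample, Csf1 was 1.94 to 2.86 times Il34 at ZT20 and 1.82 to 2.68 times at ZT8. Csf1 was thus the more abundant ligand in all 7 samples, and this ratio overlapped between the groups.

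Ccl2 and Ccl7 are neighbouring, related chemokines that attract monocytes, and how reads shared by such relatives were divided is not stated. Ccl2 (ENSMUSG00000035385) measured 17.9, 16.3, 14.2 and 13.2 TPM across the ZT20 libraries and 25.5, 19.5 and 11.4 TPM across the ZT8 libraries. The ZT8 samples held both the highest and the lowest value. Its log2 difference was −0.22 with a 95% interval of −0.81 to 0.38 (limma adjusted p = 0.582). Ccl2 also overlaps a gene on the opposite strand in GENCODE M21.

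Ccl7 (ENSMUSG00000035373) measured 21.3, 22.6, 10.2 and 21.2 TPM across the ZT20 libraries. It measured 41.7, 69.8 and 25.6 TPM across the ZT8 libraries. Every ZT8 sample was above every ZT20 sample. The means were 18.8 ± 5.76 TPM (SD, n = 4) and 45.7 ± 22.4 TPM (SD, n = 3). The estimated log2 difference was −1.18 (SE 0.37) with a 95% interval of −2.02 to −0.34, and it missed the adjusted threshold (unadjusted p = 0.0113, limma adjusted p = 0.0598). It passed under median-ratio scaling (−1.42, limma adjusted p = 0.0434) and without ZT8 replicate 3 (−1.53, limma adjusted p = 0.0380). It was −0.91 (limma adjusted p = 0.320) without ZT20 replicates 3 and 4, the libraries that go against their label, and −0.82 (limma adjusted p = 0.125) without ZT8 replicate 2. The summed TPM of 7 satellite glia markers was higher in every ZT8 sample (12202 to 14865) than in every ZT20 sample (7552 to 8978), with none of the 7 at 0 in any sample. Most of that sum was Apoe, and of the 7 markers 4 had negative and 3 positive differences (6 and 1 under median-ratio scaling). By limma 2 fell at ZT20, Apoe (−0.88, adjusted p = 0.0066) and Fabp7 (−0.39, adjusted p = 0.0327), which is 28.6% of the 7 against 3.61% of all tested genes. Both calls ended without the level filter (limma adjusted p = 0.0702 and 0.0760) and under quantile normalization (limma adjusted p = 0.108 and 0.0769). The Fabp7 call also ended after the length correction, without the intensity trend, and without any 1 of the ZT20 replicates or ZT8 replicate 1 (−0.42 to −0.34). The summed TPM of 5 B and plasma cell markers, with Jchain the most abundant, was higher in every ZT8 sample as well (219 to 616, against 11.0 to 193 at ZT20), with 1 of the 5 at 0 in ZT20 replicate 4. Of the 4 tested, Mzb1 fell at ZT20 (−2.88, limma adjusted p = 0.0432), which is 25% against 3.61% of all tested genes. Leaving out any library but ZT20 replicate 2 ended that call (−3.33 to −2.25), as did the lower pseudocount of 0.1, no level filter, the length correction, no intensity trend and array weights (−3.94 to −2.84). Of all the cell type sums, only those of satellite glia and of B and plasma cells did not overlap between the groups. Among single tested genes 33.2% did not overlap. Within ZT8 both sums were lowest in replicate 2 (12202 and 219), where Ccl7 was highest (69.8 TPM). The part of these cells in the Ccl7 values was not tested. In such bulk samples, more cells of a type and more RNA per cell cannot be told apart.

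Set against Ccl2 in the same sample, Ccl7 was 1.195, 1.384, 0.7214 and 1.604 times Ccl2 across the ZT20 libraries. It was 1.631, 3.578 and 2.239 times Ccl2 in the ZT8 replicates. The groups did not overlap, by a narrow gap between ZT20 replicate 4 and ZT8 replicate 1. This ratio was chosen after the values were seen and was not tested.

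**Figure D2:**
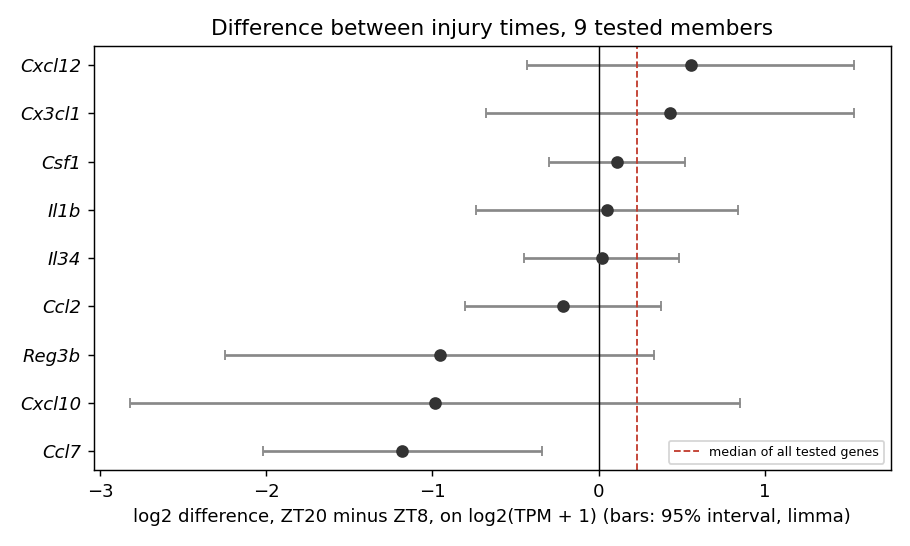
Log2 difference between ZT20 and ZT8 for the 9 tested members, with points for the estimate and bars for the 95% interval from limma. The dashed line marks the median of all tested genes, 0.23. The Ccl7 interval alone lies on 1 side of 0, before adjustment for the number of genes tested.

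Cxcl10 (ENSMUSG00000034855), an interferon-induced chemokine that acts on Cxcr3 of T cells, varied widely at ZT8. It measured 2.08, 5.57, 6.13 and 2.59 TPM across the ZT20 libraries and 30.6, 1.07 and 11.8 TPM across the ZT8 libraries. The lowest value of all samples and the 2 highest were at ZT8. The log2 difference was −0.98 with a 95% interval of −2.82 to 0.85 (limma adjusted p = 0.412). Without ZT8 replicate 2, the library with the fewest detected genes, it was −2.08 and passed (limma adjusted p = 0.0226). With array weights, which give less weight to libraries that deviate, it was −1.85 and passed as well (limma adjusted p = 0.0391). Without ZT8 replicate 1, which held the highest value, it was −0.11 (limma adjusted p = 0.922). Cxcl10 overlaps Art3 on the opposite strand, and the assignment of reads to it is uncertain.

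Cx3cl1 (ENSMUSG00000031778), also called fractalkine, is made as a membrane-bound chemokine and shed by proteases. It measured 2.46, 1.68, 2.45 and 3.04 TPM across the ZT20 libraries and 3.49, 0.0112 and 2.45 TPM across the ZT8 libraries. Apart from ZT8 replicate 2, all samples lay within a narrow band. Its log2 difference was 0.43 with a 95% interval of −0.68 to 1.54 (limma adjusted p = 0.556), and without ZT8 replicate 2 it was −0.22 (limma adjusted p = 0.541).

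Cxcl12 (ENSMUSG00000061353), the ligand of Cxcr4 and Ackr3, measured 3.48, 1.24, 1.68 and 1.65 TPM across the ZT20 libraries. It measured 2.18, 0.0212 and 1.39 TPM across the ZT8 libraries. ZT8 replicate 2 was again near 0, and the other samples overlapped. The estimated log2 difference was 0.55 with a 95% interval of −0.43 to 1.54 (limma adjusted p = 0.388). It was 0.076 without ZT8 replicate 2, 0.11 with array weights and 0.013 under quantile normalization. After each sample's trend with transcript length was removed it was 0.0077, and with the lower pseudocount of 0.1 it was 1.40. None of these values passed. At these levels Cxcl12 stood above 9.24% of the tested genes and Cx3cl1 above 14.8%.

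The cytokines Il1b and Tnf were scarce. Il1b (ENSMUSG00000027398), the main secreted interleukin-1, measured 3.81, 3.28, 2.79 and 4.94 TPM across the ZT20 libraries and 6.33, 3.42 and 1.77 TPM across the ZT8 libraries. The ZT20 range lay inside the ZT8 range. The log2 difference was 0.050 with a 95% interval of −0.74 to 0.84 (limma adjusted p = 0.930). Il1b overlaps an antisense gene in GENCODE M21.

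Tnf (ENSMUSG00000024401) measured 0.861, 0.181, 0.332 and 0.279 TPM across the ZT20 libraries. It was at 0.437 TPM in ZT8 replicate 1 and listed at 0 in ZT8 replicates 2 and 3. The groups overlapped. The difference in mean log2(TPM + 1) was 0.30, with p = 0.229 in an exact permutation test (two-sided, 35 splits), whose smallest possible p is 0.0286.

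Reg3b (ENSMUSG00000071356) was listed at 0 in ZT20 replicate 1, with 0.249, 0.896 and 0.778 TPM in the other ZT20 libraries. The gene measured 0.200, 6.16 and 1.50 TPM across the ZT8 libraries. ZT8 replicate 2 held the highest value, and ZT8 replicate 1 lay within the ZT20 range. Without ZT8 replicate 2 its mean fell under 1 TPM and it was not tested. With all samples the log2 difference was −0.96 with a 95% interval of −2.25 to 0.34 (limma adjusted p = 0.262). It was −1.56 without ZT8 replicate 1 (limma adjusted p = 0.0690) and −0.16 with array weights (limma adjusted p = 0.810). Of 7 Reg family genes in the table, 2 were tested, Reg1 and Reg3b, and by limma 0 passed at either the adjusted or the unadjusted threshold of 0.05. Of all 14800 tested genes, 16.4% passed the adjusted threshold and 5122 the unadjusted one. Reg3g, the closest relative of Reg3b, was at 0 to 0.144 TPM at ZT20 and 0.348, 1.73 and 0 TPM across the ZT8 libraries. ZT8 replicate 2 was thus the highest sample for both relatives.

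Csf1 was first and Tnf last in the order of levels in both groups. At ZT20 the order was Csf1, Il34, Ccl7, Ccl2, Cxcl10, Il1b, Cx3cl1, Cxcl12, Reg3b and Tnf. There the ranges of Csf1 and Il34, of Il34 and Ccl7, of Ccl2 and Cxcl10, and of Cxcl12 and Reg3b did not overlap, and the other neighbours in that order overlapped. At ZT8 Ccl7 stood in the second place, between Csf1 and Il34, and overlapped both, and Reg3b stood seventh, above Cx3cl1 and Cxcl12. The only neighbours without overlap at ZT8 were Il34 and Ccl2. The spread within groups also separated the members. The coefficient of variation at ZT20 and ZT8 was 20.8% and 15.8% for Csf1 and 17.6% and 22.5% for Il34. For Ccl2 it was 13.6%, the lowest at ZT20, and 37.6%. It was 50.1% and 103% for Cxcl10.

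Receptors of these signals formed a list of 17 genes, of which 14 were tested. By limma 3 of the 14 rose at ZT20 (21.4% of the tested genes of the list, against 12.8% of all tested genes), and none fell. The median log2 difference of the list was 0.41, against 0.23 for all genes. The 3 were Il1r2, Ackr1 and Extl3. Csf1r, the receptor of Csf1 and Il34, measured 8.37, 7.31, 8.62 and 12.4 TPM across the ZT20 libraries and 14.0, 12.6 and 5.85 TPM across the ZT8 libraries. Its log2 difference was −0.16 (limma adjusted p = 0.738), and the ranges overlapped. Ccr2, the receptor of Ccl2 and Ccl7, differed by 0.51 (limma adjusted p = 0.379) and Cx3cr1 by −0.34 (limma adjusted p = 0.445). The Tnf receptors Tnfrsf1a (0.33) and Tnfrsf1b (0.50), the chemokine receptors Ccr1 (0.33) and Cxcr3 (−0.83), and the Il34-binding proteins Ptprz1 (0.18) and Sdc1 (−0.0047) did not pass either. The Cxcl12 receptors Cxcr4 and Ackr3 were under 1 TPM in every sample, as was Ccr3, and these 3 were not tested.

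Il1r2, a decoy receptor that binds Il1b without signalling, measured 22.8, 9.77, 8.24 and 13.5 TPM across the ZT20 libraries. It measured 2.76, 3.44 and 1.74 TPM across the ZT8 libraries. All ZT20 samples were above all ZT8 samples. Its log2 difference was 1.93 (SE 0.35, limma adjusted p = 0.0109). Il1r2 is also known as a neutrophil transcript. The summed TPM of 6 neutrophil markers was 2771, 692, 430 and 506 in the ZT20 replicates and 188, 735 and 60.8 in the ZT8 replicates, with none of the 6 at 0 in any sample. Of those 6, Csf3r and Retnlg rose at ZT20, with log2 differences of 1.14 and 2.20 (limma adjusted p = 0.0395 and 0.0306). These are 33.3% of the 6, against 12.8% of all tested genes. All 6 differences were positive and 5 had an unadjusted p under 0.05, with a median of 1.72 against 0.23 for all tested genes. Of all 14800 tested genes, 5122 had an unadjusted p under 0.05. The calls of Csf3r and Retnlg ended when ZT20 replicate 1, 3 or 4 or ZT8 replicate 1 or 3 was left out (0.95 to 1.26 for Csf3r and 1.77 to 2.40 for Retnlg). The part of these cells in the Il1r2 value was not tested. The signalling receptor Il1r1 (0.74) and its partner Il1rap (0.75) did not pass the threshold (limma adjusted p = 0.0796 and 0.0679), although their groups did not overlap.

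Ackr1, an atypical receptor that binds many chemokines, Ccl2 and Ccl7 among them, without the usual signalling, measured 76.4, 74.6, 70.7 and 63.9 TPM across the ZT20 libraries. It measured 28.7, 12.2 and 34.7 TPM across the ZT8 libraries. The groups were far apart, and the ZT20 samples were close to each other. The estimated log2 difference was 1.58 (SE 0.31, limma adjusted p = 0.0140). Ackr1 overlaps Cadm3 on the same strand in GENCODE M21, so the assignment of reads to it is uncertain, and Cadm3 differed by 0.43 without passing (limma adjusted p = 0.181). The 5 endothelial markers, a cell type known for Ackr1, summed to 3.61 to 5.31 TPM at ZT20 and 0.680 to 4.21 TPM at ZT8, with 2 of the 5 at 0 in ZT8 replicate 2. Extl3, reported as a receptor of Reg proteins, measured 34.6, 20.3, 36.3 and 36.6 TPM across the ZT20 libraries and 17.7, 12.8 and 13.5 TPM across the ZT8 libraries. The groups did not overlap. Its log2 difference was 1.05 (SE 0.24, limma adjusted p = 0.0222), and after each sample's trend with transcript length was removed it was 0.47 (limma adjusted p = 0.166). Without ZT20 replicates 3 and 4 no gene of the table passed (2378 had an unadjusted p under 0.05). The log2 differences of Il1r2, Ackr1 and Extl3 were then 2.16, 1.67 and 0.82 (limma adjusted p = 0.123, 0.168 and 0.256). Leaving out ZT20 replicate 1, 3 or 4 or ZT8 replicate 3 also ended the Extl3 call, with log2 differences of 1.00, 0.97, 0.97 and 1.00.

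**Figure D3:**
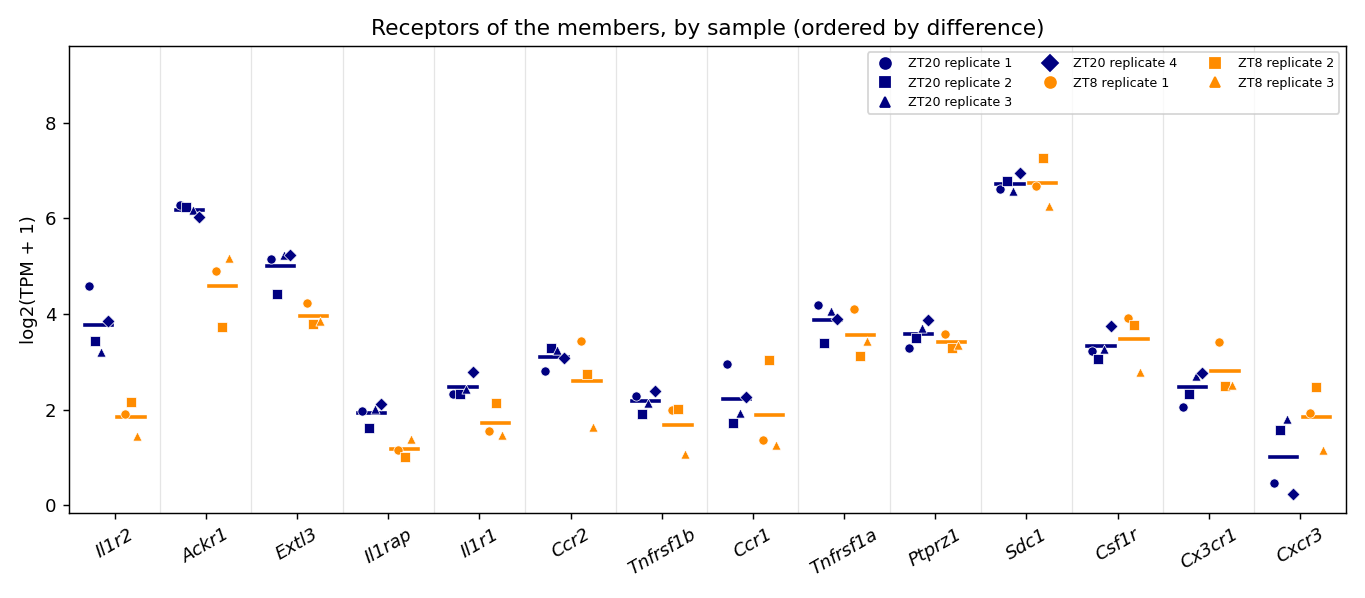
Level of 14 tested receptors of the members as log2(TPM + 1) in each sample, ordered from the largest to the smallest difference between ZT20 (blue) and ZT8 (orange). Symbols give the replicate and horizontal bars the group mean. Il1r2, Ackr1 and Extl3 passed the adjusted threshold, while Csf1r and Cx3cr1 overlap between the groups.

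Genes that cut or process the signals formed a list of 14, with 11 tested and a median log2 difference of −0.096. The median was −0.28 with median-ratio scaling, −0.44 with quantile normalization and −0.17 with the length correction. That of all tested genes moved from 0.23 to 0.019, 0.0046 and −0.0027. By limma 2 rose at ZT20 (18.2% of those tested, against 12.8% of all tested genes) and 0 fell. After the length correction 1 fell, as under either of the other scalings. Adam10, a membrane protease that sheds Cx3cl1, measured 29.3, 31.9, 35.3 and 43.3 TPM across the ZT20 libraries and 17.8, 19.6 and 14.6 TPM across the ZT8 libraries. The groups did not overlap, and the log2 difference was 0.97 (SE 0.18, limma adjusted p = 0.0122). After the length correction it was 0.52 (limma adjusted p = 0.101). Mmp9, a secreted gelatinase that neutrophils store, measured 18.9, 3.77, 6.49 and 8.86 TPM across the ZT20 libraries. It measured 1.64, 0 and 0.874 TPM across the ZT8 libraries, so the groups did not overlap. Its log2 difference was 2.42 (limma adjusted p = 0.0174), and without ZT20 replicate 4 it was 2.39 (limma adjusted p = 0.0563). Casp1, which matures Il1b, differed by −0.78 without passing (limma adjusted p = 0.0872).

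Of 32 other chemokines, 21 were tested, and by limma 1 rose at ZT20 (4.76% of those tested, against 12.8% of all tested genes) and 0 fell (against 3.61%). The calls were 1 higher and 2 lower under median-ratio scaling and 0 higher and 3 lower under quantile normalization. The one was Cxcl2, a chemokine that draws neutrophils, at 3.70, 1.69, 2.72 and 3.16 TPM across the ZT20 libraries and 0, 0.597 and 0.626 TPM across the ZT8 libraries. Its groups did not overlap, and the log2 difference was 1.44 (limma adjusted p = 0.0189). The call ended under quantile normalization (1.08, limma adjusted p = 0.0812) and when ZT20 replicate 1, 3 or 4 was left out (1.33 to 1.45). The median log2 difference of the 21 was −0.63, against 0.23 for all tested genes, and 15 were negative. The median was −0.74 with median-ratio scaling, −0.96 with quantile normalization and −0.72 with the length correction. Ccl12, another monocyte chemokine next to Ccl2 and Ccl7, measured 11.6, 16.6, 7.53 and 9.25 TPM across the ZT20 libraries and 35.9, 24.4 and 14.1 TPM across the ZT8 libraries. The ranges overlapped between ZT20 replicate 2 and ZT8 replicate 3, and the log2 difference of −1.04 did not pass (limma adjusted p = 0.0703).

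**Figure D4:**
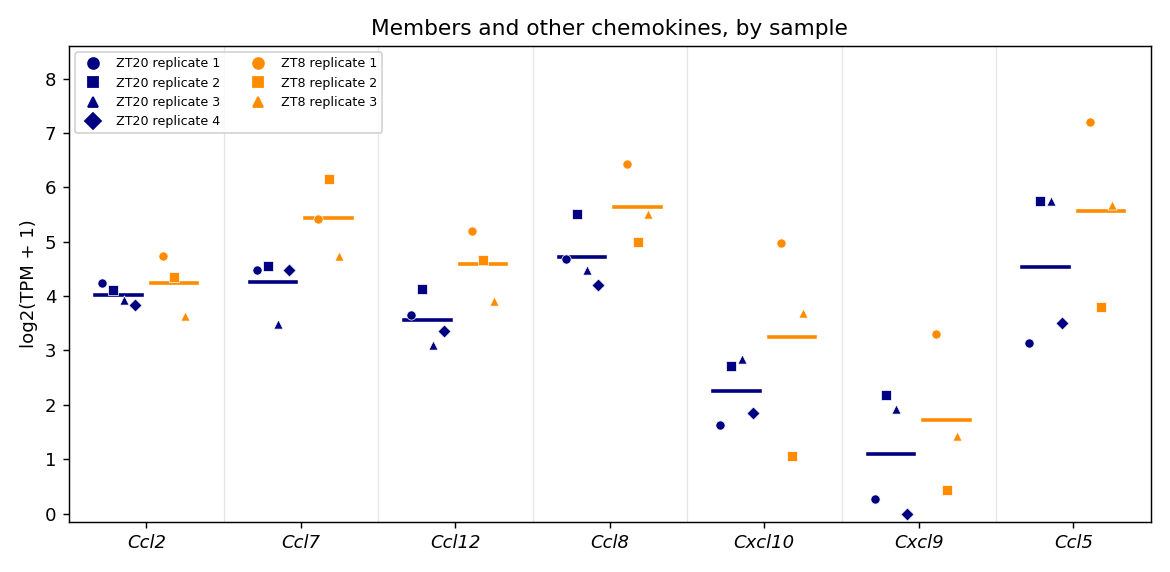
Level of 3 members (Ccl2, Ccl7 and Cxcl10) and 4 other chemokines (Ccl12, Ccl8, Cxcl9 and Ccl5) as log2(TPM + 1) in each sample, with ZT20 in blue and ZT8 in orange. Symbols give the replicate and horizontal bars the group mean. ZT8 replicate 1 is the highest sample for 6 of the 7 genes, and ZT8 replicate 2 is the highest for Ccl7.

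Other cytokines and growth factors numbered 23, with 9 tested and a median log2 difference of −0.064 (against 0.23 for all tested genes), and by limma 1 rose and 1 fell at ZT20. Over all tested genes the shares were 12.8% higher and 3.61% lower. The median of this list was −0.25 under median-ratio scaling, −0.27 under quantile normalization and −0.020 after the length correction. Mif, macrophage migration inhibitory factor, was at 274 to 400 TPM at ZT20 and 206 to 235 TPM at ZT8, a log2 difference of 0.56 (limma adjusted p = 0.0342). Il18, a relative of Il1b matured by the same caspase, was at 7.66 to 13.7 TPM at ZT20 and 16.3 to 20.8 TPM at ZT8, a log2 difference of −0.96 (limma adjusted p = 0.0254). The groups did not overlap for either gene. Under median-ratio scaling Mif differed by 0.31 (limma adjusted p = 0.234), and both calls also ended in fits that left out 1 library. These were any library but ZT20 replicate 4 and ZT8 replicate 2 for Mif (0.46 to 0.60), and ZT20 replicate 1, 3 or 4 or ZT8 replicate 1 for Il18 (−0.95 to −0.88). NF-kappaB feedback genes, 13 of 13 tested, had a median of 0.35, against 0.23 for all tested genes. By limma 0 of the 13 passed, against 16.4% of all tested genes. An unadjusted p under 0.05 was found for 1 of the 13, Tnfaip3, against 5122 of all 14800 tested genes. Of 16 injury genes 15 were tested with a median of 0.28, and Flrt3 (0.73) and Stat3 (0.60) rose at ZT20 (limma adjusted p = 0.0271 and 0.0376). That is 13.3% of those tested, near the 12.8% of all tested genes, and the median was near the 0.23 of all genes. Both calls ended under median-ratio scaling (0.49 and 0.35, limma adjusted p = 0.107 and 0.109). They ended as well without ZT20 replicate 2, 3 or 4 or ZT8 replicate 3 for Flrt3 (0.63 to 0.81), and without ZT20 replicate 1, 3 or 4 or ZT8 replicate 2 or 3 for Stat3 (0.51 to 0.65). Atf3, a factor switched on by axon injury, was at 281 to 400 TPM at ZT20 and 357 to 408 TPM at ZT8.

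Markers of the cells these signals act on were present in every sample. The summed TPM of 13 macrophage markers was 460 to 848 at ZT20 and 491 to 1159 at ZT8, with none of the 13 at 0 in any sample. By limma 1 of the 13, Mrc1, rose at ZT20 (1.40, adjusted p = 0.0259), and 1, C1qa, fell (−1.17, adjusted p = 0.0253). These 2 are 15.4% of the 13, near the 16.4% of all tested genes. Leaving out ZT20 replicate 1, 3 or 4 ended both calls (1.20 to 1.55 and −1.27 to −1.07), and leaving out ZT8 replicate 3 ended that of Mrc1 (1.48). Il1b, Ccl2 and the macrophage sum were each highest in ZT8 replicate 1. The summed TPM of 5 monocyte markers was 79.1 to 317 at ZT20 and 41.1 to 103 at ZT8. The sensory neuron markers, 8 in number, summed to 12040 to 13733 TPM at ZT20 and 9948 to 13555 TPM at ZT8, so the labelled neurons were present in all 7. Of these 8, Nefh, a neurofilament subunit, rose at ZT20 (1.36, limma adjusted p = 0.0057), and this 12.5% of the list is near the 12.8% of all tested genes.

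**Figure D5:**
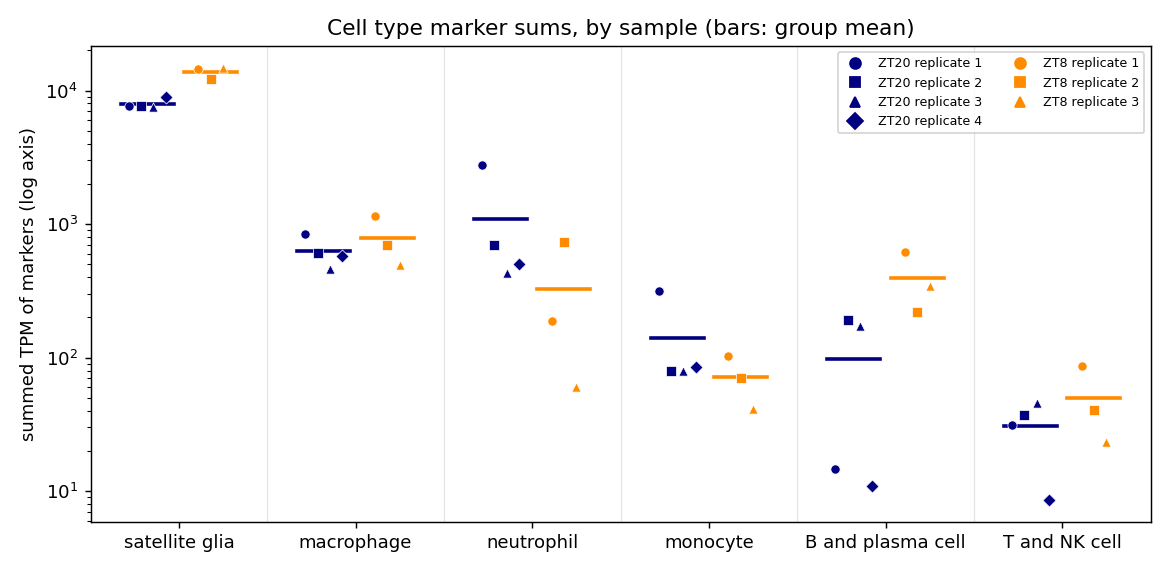
Summed TPM of marker genes of 6 cell types in each sample on a log axis, with ZT20 in blue and ZT8 in orange. Symbols give the replicate and horizontal bars the group mean. Macrophage sums overlap between the groups, satellite glia sums do not, and the neutrophil sum is highest in ZT20 replicate 1 at 2771 TPM.

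Several of these list calls also ended under other settings. Without the level filter the calls of Il1r2, Ackr1 and Adam10 held, while those of Extl3, Mmp9, Cxcl2, Mif, Il18, Flrt3, Stat3, Mrc1, C1qa, Csf3r and Retnlg ended with the same differences (limma adjusted p = 0.0578 to 0.111). After the length correction the log2 differences of Flrt3, Stat3, Csf3r and Mrc1 were 0.38, 0.030, 0.87 and 0.87 (limma adjusted p = 0.225, 0.897, 0.140 and 0.105). Csf3r and Retnlg also missed the threshold under median-ratio scaling (limma adjusted p = 0.0730 and 0.0531), Csf3r and Mrc1 under quantile normalization (limma adjusted p = 0.0980 and 0.0758), and Mif and Stat3 without the intensity trend (limma adjusted p = 0.0683 and 0.0706). In GENCODE M21 Il1r2, Mrc1, Mzb1 and Csf1r overlap other genes on the same strand, and Il1r2, Csf1r, Il18, Flrt3 and Stat3 overlap genes on the opposite strand, so the assignment of reads to these is uncertain as well.

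The genes with profiles most like those of 3 members were found by the mean absolute difference of log2(TPM + 1), centred on each gene's mean, over the 7 samples. For Csf1 they were Gm48135 (0.062), Cul2 (0.075) and Lpar1 (0.077). For Ccl2 they were Cd300ld (0.081), Wdr55 (0.087) and 2900009J06Rik (0.094). For Reg3b they were Gnb3 (0.17), Nrarp (0.18) and Sclt1 (0.25), each of them highest in ZT8 replicate 2 like Reg3b itself.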

How the data were processed

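Total RNA of 7 neuron-enriched ganglion samples was sequenced from libraries of a low-input kit, per the labels. The authors deposited TPM for 54309 genes. FastQC 0.11.9, Trim Galore 0.6.6, Salmon 1.6.0, DESeq2 1.34.0 and GRCm39 are listed without roles in the submitters' processing notes, and the annotation release is not given in the sources used here. Depth cannot be read from TPM, so no counting interval is given.

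Groups came from the sample titles. Values were analysed as log2(TPM + 1), a scale that understates changes of low genes. The 14800 genes whose mean reached 1 TPM were fitted over all samples with limma 3.58.1 (intensity trend, no covariates, two-sided, R 4.3.3), and p-values were adjusted over all of them. In data simulated for this comparison over 14800 genes, 66.0% of 200 genes changed by 1.5 on the log2 scale were called, and 0 when none was changed. Each gene was drawn independently there, so differences that a whole library shares, such as those of ZT8 replicate 2, were absent. The simulation therefore cannot show how many calls such differences give. One receptor is not reported here and was left out of the receptor list. Tnf, below the filter, was compared by exact permutation.

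The members and lists were chosen with earlier results of these data known. Named were all members, their receptors, from each other list the 2 largest called differences in each direction, and the nearest profiles of Csf1, Ccl2 and Reg3b. Further genes (Reg3g, Casp1, Ccl12, Ccl5, Ccl8, Cxcl9, Ppbp, Pf4, Jchain, Nkg7, Tnfaip3, Atf3) were named after their values were seen. Transcript length and overlaps came from GENCODE M21 (GRCm38), matched by identifier for 14745 tested genes. Alternatives were another pseudocount, other filters, 2 scalings, removal of each sample's loess trend with length (span 0.3), no intensity trend, array weights, a replicate block and left-out libraries.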

Additional observations from a re-analysis of the deposited data

Results flagged for a closer look

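Among the 20 values examined for a far sample in the ZT20 group (the 10 members and 10 called genes of the pathway lists), 2 had 1 sample whose gap to its nearest neighbour took more than the 95% critical share of the whole range of the group, and chance gives about 1 in 20. Ccl7 measured 10.2 TPM in ZT20 replicate 3 against 21.2 to 22.6 TPM for the rest of that group, a share of 0.887. Without that library the log2 difference of Ccl7 was −0.93. Extl3 measured 20.3 TPM in ZT20 replicate 2 against 34.6 to 36.6 TPM for the rest, with a share of 0.873. Without it the log2 difference of Extl3 was 1.24. The groups of 3 at ZT8 are too small for this check.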

How the results depend on the processing

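The cause of each change below was not tested. No alternative called a member higher at ZT20. Of the members called lower there was 1 under median-ratio scaling (Ccl7), array weights (Cxcl10) and the replicate block (Ccl7), and 0 to 1 when 1 library was left out. Ccl7 was negative in all 18 alternatives. Signs of the even members changed. The log2 difference of Csf1 was −0.14 under median-ratio scaling, −0.27 after the length correction, −0.024 with the replicate block, −0.045 without ZT20 replicates 3 and 4, −0.14 without ZT20 replicates 2, 3 and 4, and −0.024 to 0.23 with 1 library left out. For Il34 it was −0.23 under median-ratio scaling, −0.17 under quantile normalization, −0.054 with array weights, −0.064 with the block, −0.16 without ZT20 replicates 3 and 4, and −0.16 to 0.16 with 1 library left out. Il1b gave −0.14, −0.25, −0.096 and −0.068 under median-ratio scaling, quantile normalization, array weights and the block, and −0.30 to 0.41 with 1 library left out. Cx3cl1 gave −0.10 under quantile normalization and −0.062 with array weights, and −0.22 to 0.85 with 1 library left out. Ccl2 ran from −0.52 to 0.029 with 1 library left out. None of these reversed values passed the threshold.

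The block used the replicate number in the titles, which says nothing of shared animals. Deviations of same-numbered libraries correlated at −0.014, 0.15 and 0.083 for numbers 1 to 3, and those of unlike numbers at −0.17 to 0.15. With so few samples these values cannot tell whether animals or processing days were shared. ZT20 replicate 4 has no partner and does not bear on the difference in that fit. With the replicate block the Ccl7 difference was −1.25 (limma adjusted p = 0.0253), and 891 genes of the table were higher and 283 lower at ZT20. The calls of Cxcl2, Il18, Flrt3, Stat3, Csf3r, Retnlg, Mrc1, Fabp7 and Mzb1 ended with the block (limma adjusted p = 0.0626 to 0.105).

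Over all genes, 978 were called higher and 200 lower without a filter, 1088 and 1254 under median-ratio scaling, 1023 and 814 under quantile normalization, and 2982 and 917 with array weights. The length correction gave 494 higher, and 332 were lower without the intensity trend. With 1 library left out the calls ran from 620 to 2375 higher and from 103 to 672 lower. Without ZT20 replicates 3 and 4, or 2, 3 and 4, they were 0 and 0, and in the second of these fits the lone ZT20 sample is assumed to vary like the ZT8 samples. Of the genes in the pathway lists, 9 were called higher and 1 lower as reported. The lists had 5 higher and 0 lower without a filter, 5 lower under each scaling, 5 higher and 2 lower after the length correction, 6 lower with array weights, and 0 of either without ZT20 replicates 3 and 4 or 2, 3 and 4. With 1 library left out they had 4 to 11 higher and 0 to 3 lower. For Tnf, every alternative kept the sign. Since depth is unknown, how far it limits Tnf, Reg3b and Cxcl12 cannot be given.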

Other observations

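Cxcl10 was higher in the same pair of ZT20 samples as Ccl5, Cxcl9, Cxcr3 and the summed B and plasma cell markers, a pattern seen only after the values were read and not tested. ZT20 replicates 2 and 3 had 5.57 and 6.13 TPM of Cxcl10 against 2.08 and 2.59 TPM in replicates 1 and 4. Ccl5, a chemokine made by T cells, was at 52.5 and 53.0 TPM in replicates 2 and 3 and at 7.75 and 10.3 TPM in replicates 1 and 4. Cxcl9, which shares the receptor Cxcr3 with Cxcl10, was at 3.55 and 2.78 TPM against 0.204 and 0 TPM. Cxcr3 itself was at 1.96 and 2.47 TPM against 0.392 and 0.181 TPM. The summed TPM of 5 B and plasma cell markers was 193 and 174 against 14.6 and 11.0, and its most abundant gene was Jchain (176 and 157 against 10.2 and 4.18 TPM). The T and NK cell sum was 37.5 and 45.5 TPM in replicates 2 and 3, close to the 31.3 TPM of replicate 1 and above the 8.58 TPM of replicate 4, and its marker Nkg7 was highest in replicate 1 (26.7 TPM). At ZT8, replicate 1 was the highest sample for Cxcl10, Ccl5 and Cxcl9 and for the B and plasma cell sum (616). Cxcr3 was highest in ZT8 replicate 2 (4.52 TPM, against 2.82 TPM in replicate 1), the sample with the lowest Cxcl10.

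ZT20 replicate 1 held the highest neutrophil sum (2771 TPM) and also the highest values of the platelet chemokines Ppbp (17.9 TPM, against 0 to 1.11 TPM in the other 6 samples) and Pf4 (19.6 TPM, against 3.45 to 8.29 TPM).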
